A study of Mus musculus with 6 samples.

Results

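Legumain, the asparagine endopeptidase (AEP) encoded by Lgmn, was examined together with 7 lysosomal cathepsins (Ctsb, Ctsl, Ctss, Ctsd, Ctsz, Ctsh and Ctsc) and 2 cystatins (Cst3 and Cst7) in the irradiated mouse cortex. These 10 genes were taken by symbol from the 51826 gene IDs of the deposited tables, and 9 of them passed the filter on low counts. The bulk RNA sequencing compared 3 Lgmn+/+-IR mice with 3 Lgmn-/--IR mice, all male BALB/c aged 6 to 8 weeks that had received 10 Gy of X-ray to the whole brain. Cortices were taken on day 3 after the irradiation. Mice without irradiation are not part of the comparison, and all differences below are between genotypes of irradiated animals. The Lgmn-/--IR mice descend from 1 targeted embryonic stem cell clone, carry Lgmn flox/flox and Cre, and the promoter that drives Cre was not given in the sources used here. Whether the Lgmn+/+-IR mice carried Cre was not given either.

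Legumain cuts proteins after asparagine at acidic pH and is made as an inactive proenzyme that matures in endosomes and lysosomes. In the lysosome it cleaves the single-chain forms of cathepsins B, H and L. Cathepsins B, L, S, Z, H and C are papain-like cysteine peptidases, and cathepsin D is an aspartic peptidase. Cystatin C (Cst3) and cystatin F (Cst7) are inhibitors with separate sites for papain-like cathepsins and for legumain. In the brain these peptidases are known from microglia and other phagocytic cells as well as from neurons, and Cst7 is known as a gene of activated microglia.

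Many lysosomal genes carry a CACGTG core in their promoters, the E-box letters bound by TFEB and TFE3, so the windows that hold it are shown to locate the letters beside the expression values. The RefSeq promoter table used here (GRCm38.p6; 250 bases before to 50 after a gene start) was matched for 8 of the 10 genes, in 9 windows. Ctsb and Ctsh had no entry in it, and their promoters were not searched. CACGTG, which reads the same on both strands, was present in 3 of these windows, those of Lgmn, Ctsl and Ctsd, and in 2349 (7.15%) of all 32851 promoter windows. The sites are printed 5′ to 3′ on the strand of the gene with CACGTG in capitals. No other motif was searched. Distances are to the RefSeq start on which a window was built. The Lgmn site is at chr12:102439126-102439151, 49 bases before 1 of its annotated starts, and the Ctsl site is at chr13:64370741-64370766, 236 bases before its RefSeq start. The Ctsd sites are at chr7:142388057-142388077 and chr7:142387910-142387935, 245 and 98 bases before its RefSeq start. The gene spans given below come from another annotation and begin further upstream. The Lgmn, Ctsl and proximal Ctsd sites lie inside those spans. Lgmn, Ctsl and Ctsd are all genes of the minus strand.
Lgmn: gaatgtctgtCACGTGgtccatttta
Ctsl: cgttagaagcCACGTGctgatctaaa
Ctsd, distal: tccccCACGTGacctgtatcc
Ctsd, proximal: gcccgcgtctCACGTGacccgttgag
A match locates letters in the window and says nothing about binding in these cortices.

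Each library held between 41874462 and 46829441 counts. Values called CPM are counts scaled to library size with edgeR's TMM method, and FPKM, which also divides by transcript length, is used wherever genes are compared with each other. A gene was called when its Benjamini-Hochberg adjusted p in edgeR's quasi-likelihood test was under 0.05, and a DEG also had an absolute log2 fold change over 1, the thresholds of the study. A negative log2 fold change means lower in Lgmn-/--IR. Of 18345 genes tested, 3.33% were called, 1.68% lower and 1.65% higher, and 2.06% were DEGs. The median log2 fold change over all genes was −0.01. Neuron markers were all present, with 10 of 10 tested and a summed level of 10140 to 13080 CPM over the 6 libraries. They show neuronal RNA and are no check of the dissection. Red blood cell genes took 0.000776% to 0.00159% of the counts in Lgmn+/+-IR libraries and 0.225%, 0.179% and 0.0219% in Lgmn-/--IR replicates 1, 2 and 3. In bulk cortex, fewer cells of a type cannot be told apart from less RNA per cell. Each library comes from a different mouse. The p-values set the genotype difference against the variation among mice, estimated from both genotypes (3 mice each) with information from the other genes.

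Lgmn, the targeted gene, fell in the Lgmn-/--IR cortex but was not lost. It lies on chromosome 12 of GRCm38 from 102394084 to 102439813 on the minus strand. Its counts were 5558, 5528 and 5775 in replicates 1, 2 and 3 of Lgmn+/+-IR, against 3703, 3269 and 4109 in the same order for Lgmn-/--IR. On the CPM scale the Lgmn+/+-IR libraries lay close together at 130.3, 129.1 and 127.0, and the Lgmn-/--IR libraries spread from 70.4 to 93.6. Every Lgmn-/--IR library was below every Lgmn+/+-IR library. The means were 129 ± 1.66 and 82.5 ± 11.6 CPM (SD, n = 3 each), a fold of 0.64. The log2 fold change was −0.64 (standard error 0.116, 95% CI −0.92 to −0.37), with an adjusted p of 0.0315 in edgeR's quasi-likelihood test. The call was lost when Lgmn+/+-IR replicate 1, 2 or 3 or Lgmn-/--IR replicate 1 was left out (adjusted p = 0.103, 0.131, 0.104 and 0.0949) and without a filter on low counts (adjusted p = 0.0632), while the log2 fold change stayed between −0.74 and −0.54. These counts are given per gene and do not separate transcripts with the deleted stretch from transcripts without it. The source of the remaining counts was not tested. For the protein, the study reported by immunoblotting that an AEP band was lost in Lgmn-/- cortex. That blot was part of the check of the knockout line, and its mice were not described as irradiated.

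The transcript length implied by the files was examined because a deletion could shorten the Lgmn transcripts used for FPKM. If only annotated transcripts were used, a deletion need not change this length, and that setting was not given in the sources used here. The ratio of a gene's share of the counts to its FPKM gives that length in each library. For Lgmn it was 2247, 2232 and 2233 bases in Lgmn+/+-IR and 2101, 2250 and 2114 bases in Lgmn-/--IR. Lgmn-/--IR replicate 2 was above all Lgmn+/+-IR libraries, and the other two were below them. The means were 2237 ± 8.23 and 2155 ± 82.1 bases (SD, n = 3 each; two-sided exact permutation test, p = 0.4, where 0.1 is the smallest p that 3 against 3 mice can give). The ratio of the means was 0.963, and for the other cathepsins and Cst3 it ran from 0.988 (Ctsc) to 1.018 (Ctsh). Within Lgmn-/--IR the implied length of Ctsh ran from 1422 to 1827 bases. A test of this size cannot reach 0.05 whatever the values, so it does not decide whether the length of Lgmn differed.

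Measured per length, Cst3 was by far the most abundant of the 10 transcripts, followed by the genes of the endopeptidases cathepsin D and cathepsin B. In Lgmn+/+-IR the mean FPKM was 963 ± 90.2 for Cst3, 156 ± 6.01 for Ctsd, 120 ± 5.78 for Ctsb and 58.3 ± 1.24 for Lgmn (SD, n = 3). Below Lgmn came Ctsl at 33.4 ± 1.52 and Ctsz at 31.6 ± 0.675 FPKM, whose library ranges overlapped and which are not ordered by these data. Ctss followed at 20.2 ± 2.23, Ctsh at 4.98 ± 0.506 and Ctsc at 1.70 ± 0.103 FPKM, and Cst7 was at 0 in all 3 libraries. The neighbours in this order other than Ctsl and Ctsz had separate ranges.

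The order was similar in Lgmn-/--IR, with overlapping ranges at 2 places. Ctsd at 133 ± 17.8 and Ctsb at 123 ± 3.54 FPKM overlapped, as did Ctsz at 28.9 ± 2.67 and Ctsl at 27.3 ± 1.16 FPKM. Lgmn kept its place between Ctsb and these at 37.7 ± 4.80 FPKM. Cst3 was at 1120 ± 285 FPKM, Ctss at 19.7 ± 2.73, Ctsh at 3.45 ± 0.772 and Ctsc at 1.6 ± 0.467 FPKM.

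**Figure D1:**
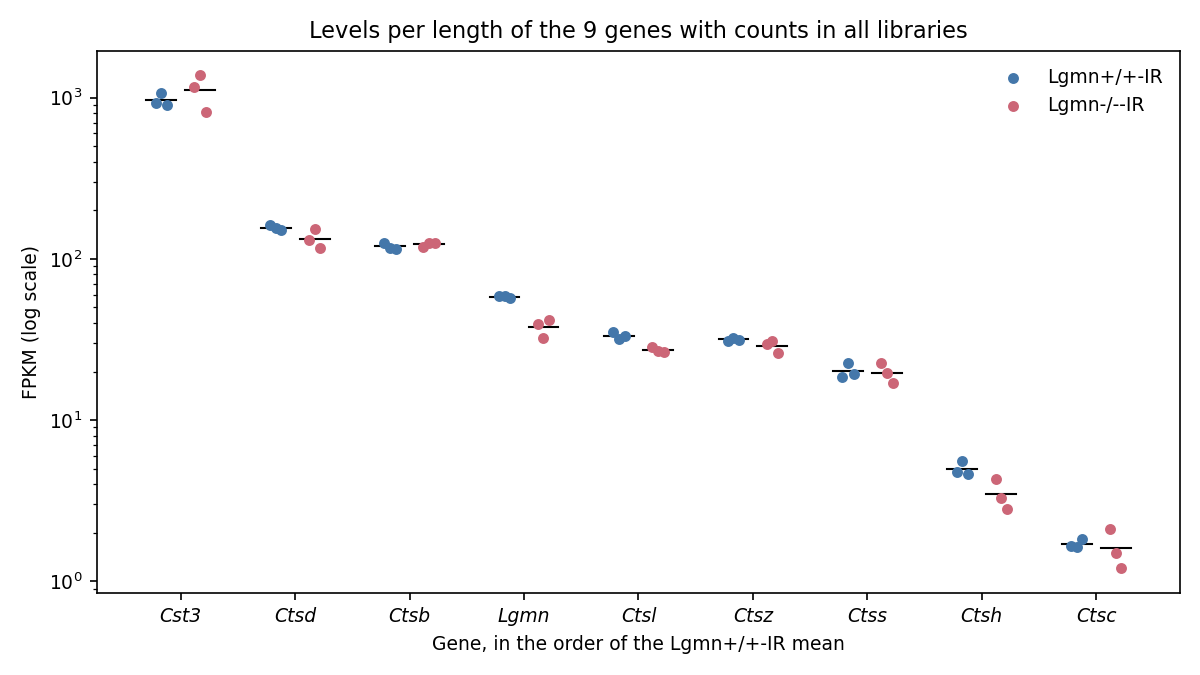
FPKM (log axis) of 9 genes in each library, ordered by the Lgmn+/+-IR mean, with points for the 3 libraries of a genotype and a line for their mean. Levels run from 963 FPKM for Cst3 to 1.70 FPKM for Ctsc in Lgmn+/+-IR, and Cst7, at 0 in those libraries, is not drawn.

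As a share of the summed FPKM of the 8 peptidase genes, Lgmn made up 13.4%, 13.9% and 13.8% in replicates 1, 2 and 3 of Lgmn+/+-IR. The corresponding shares in Lgmn-/--IR were 10.5%, 8.24% and 11.6%, all lower. Ctsd and Ctsb together made up 64.0% to 65.8% in Lgmn+/+-IR and 66.4% to 70.8% in Lgmn-/--IR. Lgmn is part of the sum, so a lower Lgmn raises the shares of the others. The mean FPKM in Lgmn+/+-IR and Lgmn-/--IR was 156 and 133 for Ctsd and 120 and 123 for Ctsb. The summed FPKM of the 8 genes, Lgmn included, ran from 413.5 to 438.6 in Lgmn+/+-IR and from 356.8 to 392.2 in Lgmn-/--IR. The 6 cysteine cathepsins alone summed to 206 to 217.2 and to 198.3 to 207.6 FPKM in the same order, which overlap. The ratio of Lgmn to Ctsl in FPKM was 1.68, 1.85 and 1.70 in Lgmn+/+-IR against 1.38, 1.21 and 1.57 in Lgmn-/--IR, so Lgmn was lower also relative to Ctsl in each Lgmn-/--IR library. The ratio of Cst3 to the summed FPKM of the 6 cysteine cathepsins was 4.24, 5.05 and 4.37 against 5.68, 6.62 and 4.10, and the genotypes overlapped.

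Among the endopeptidases, Ctsb, which encodes a cathepsin that can also trim dipeptides from protein ends, was not called. It lies on chromosome 14 from 63122462 to 63145923 on the plus strand. The Ctsb libraries ran from 613 to 669 CPM in Lgmn+/+-IR and from 646 to 720 CPM in Lgmn-/--IR. Their ranges overlapped, and the log2 fold change was 0.09 (95% CI −0.12 to 0.29, adjusted p = 0.639 in edgeR's quasi-likelihood test). Its annotated span shares 774 bases with Fdft1 on the opposite strand (3974 to 5342 counts), and whether strand was used in counting was not given in the sources used here.

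Ctsl, which encodes a broad endopeptidase of the lysosome, lies on chromosome 13 from 64359337 to 64370890 on the minus strand. It stood at 74.5, 69.9 and 73.9 CPM in Lgmn+/+-IR and at 65.6, 55.3 and 63.8 CPM in Lgmn-/--IR. All Lgmn-/--IR libraries were below all Lgmn+/+-IR libraries, with means of 61.6 ± 5.52 against 72.8 ± 2.48 CPM (SD, n = 3 each). The log2 fold change of −0.24 (95% CI −0.47 to −0.01) had an adjusted p of 0.251 in edgeR's quasi-likelihood test and was not called.

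Ctss encodes a cathepsin that stays active at neutral pH and processes the invariant chain of MHC class II in antigen-presenting cells. It lies on chromosome 3 from 95526786 to 95556403 on the plus strand. Its level was 28.1, 33.9 and 29.3 CPM in Lgmn+/+-IR and 34.7, 29.3 and 27.8 CPM in Lgmn-/--IR, with overlapping ranges. Its log2 fold change was 0.01 (95% CI −0.28 to 0.30, adjusted p = 0.977 in edgeR's quasi-likelihood test), and its sign turned with upper-quartile scaling, with library totals and with FPKM.

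Among the exopeptidases, Ctsh had the lowest log2 fold change of the 8 genes not called. Cathepsin H is an aminopeptidase, and its gene lies on chromosome 9 from 90054152 to 90076089 on the plus strand. The 3 Lgmn+/+-IR libraries held 334, 358 and 355 counts and the Lgmn-/--IR libraries 274, 255 and 239 counts, or 7.83, 8.36 and 7.81 against 6.17, 5.49 and 5.45 CPM. The genotypes did not overlap. The means were 8.0 ± 0.314 and 5.70 ± 0.404 CPM (SD, n = 3 each), and the log2 fold change of −0.49 (95% CI −0.78 to −0.20) missed the threshold with an adjusted p of 0.0937 in edgeR's quasi-likelihood test. DESeq2 gave −0.48 with an adjusted p of 0.03.

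Ctsz, the gene of a carboxypeptidase also known as cathepsin X, lies on chromosome 2 from 174427493 to 174439039 on the minus strand. It was at 49.97, 51.45 and 51.21 CPM in Lgmn+/+-IR and at 49.03, 49.05 and 45.25 CPM in Lgmn-/--IR. The libraries did not overlap, although the gap between the genotypes was small. Its log2 fold change was −0.09 (95% CI −0.29 to 0.11, adjusted p = 0.614 in edgeR's quasi-likelihood test). Ctsz shares 10 bases of its span with Nelfcd on the opposite strand.

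Ctsc encodes dipeptidyl peptidase I, which activates the granule serine proteases of immune cells, and lies on chromosome 7 from 88278085 to 88310888 on the plus strand. In Lgmn+/+-IR 199, 191 and 227 counts were found, against 259, 184 and 160 in Lgmn-/--IR. Lgmn-/--IR replicate 1 was the highest of the 6 libraries, and the other Lgmn-/--IR libraries were the lowest. The log2 fold change was −0.07 (95% CI −0.56 to 0.42, adjusted p = 0.882 in edgeR's quasi-likelihood test), the widest interval among the 9 genes tested. Its sign turned when Lgmn-/--IR replicate 2 or 3 was left out.

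Ctsd, the gene of the aspartic endopeptidase cathepsin D, lies on chromosome 7 from 142375911 to 142388038 on the minus strand. It was at 383.6, 353.2 and 355.5 CPM in Lgmn+/+-IR and at 311.2, 355.0 and 295.6 CPM in Lgmn-/--IR. Lgmn-/--IR replicate 2 lay within the Lgmn+/+-IR range and the other two below it. On the log2 scale the fold change was −0.18 (95% CI −0.41 to 0.04, adjusted p = 0.361 in edgeR's quasi-likelihood test). Ctsd shares 6757 bases with Gm49369, a protein-coding gene on the same strand, for which 699, 404 and 89 counts (Lgmn+/+-IR) and 62, 395 and 240 counts (Lgmn-/--IR) were given, so some reads could have been assigned to either.

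Cst3, the gene of the secreted inhibitor cystatin C, lies on chromosome 2 from 148871722 to 148875692 on the minus strand. Its level was 866, 983.8 and 850.7 CPM in Lgmn+/+-IR and 1128, 1255 and 828.1 CPM in Lgmn-/--IR. Lgmn-/--IR replicates 1 and 2 were above every Lgmn+/+-IR library and replicate 3 was below them. The log2 fold change was 0.25 (standard error 0.158, 95% CI −0.12 to 0.62, adjusted p = 0.449 in edgeR's quasi-likelihood test). Without Lgmn-/--IR replicate 2 it was 0.12 and without replicate 3 it was 0.41, not called in either case.

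Cst7, the gene of cystatin F, was barely detected. It lies on chromosome 2 from 150570415 to 150578944 on the plus strand. No read was counted in the 3 Lgmn+/+-IR libraries or in Lgmn-/--IR replicate 3, and 4 and 6 counts were found in Lgmn-/--IR replicates 1 and 2. A count of 0 allows up to 3 counts in a library, so no fold is given. Cst7 was below the filter and was not tested with the rest. Without a filter its adjusted p was 0.405 in edgeR's quasi-likelihood test, and a difference was not detectable at this depth. The libraries with Cst7 reads and with the highest Cst3 are the 2 with the largest share of red blood cell counts, and the part of that share in these values was not tested.

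**Figure D2:**
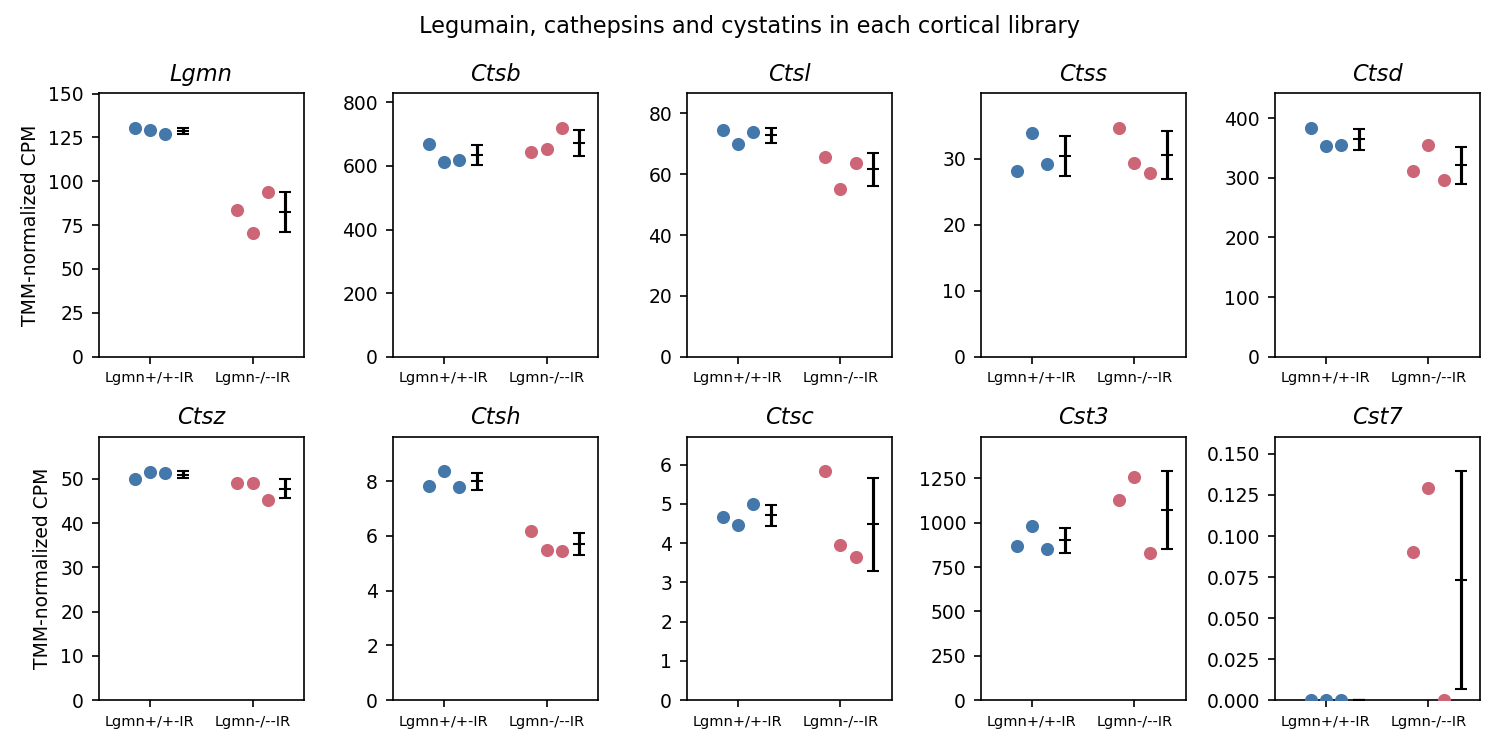
TMM-normalized CPM (linear axes from 0) of the 10 genes, with points for replicates 1 to 3 of each genotype from left to right and black bars for the mean ± SD (n = 3). Lgmn, Ctsl, Ctsz and Ctsh show every Lgmn-/--IR library below every Lgmn+/+-IR library, and the remaining genes overlap or, for Cst7, rest on 4 and 6 counts.

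Counted together, 1 of the 9 genes tested was called and it was Lgmn (background 3.33% in either direction, 1.68% lower). None of the 9 was a DEG in edgeR, DESeq2 or limma-voom, against 2.06% of all genes, and 3 of the 9 (Lgmn, Ctsl and Ctsh) had an unadjusted p under 0.05, as did 18.6% of all genes. Log2 fold changes were lower than 0 for 6 genes and higher for 3, with a median of −0.09 beside −0.01 over all genes. In 4 of the 9 (Lgmn, Ctsl, Ctsz and Ctsh) the Lgmn-/--IR libraries were all below the Lgmn+/+-IR libraries, a pattern that 13.3% of all genes showed, and in none were they all above. The 8 genes not called ranged from −0.49 to 0.25.

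The remaining genes of lysosomal proteolysis were counted in the same way. Of 13 other lysosomal peptidase genes 9 were tested, with a median log2 fold change of 0.04, and 1 was called, in the higher direction (beside 1.65% of all genes). That gene was Prcp, which encodes a carboxypeptidase that cuts after proline. It rose from 234, 232 and 236 counts in Lgmn+/+-IR to 403, 458 and 424 counts in Lgmn-/--IR, by 0.83 on the log2 scale (standard error 0.117, 95% CI 0.56 to 1.10, adjusted p = 0.0131 in edgeR's quasi-likelihood test). The call was lost without Lgmn+/+-IR replicate 2 or 3 or Lgmn-/--IR replicate 3 (adjusted p = 0.0796, 0.065 and 0.0517).

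Of the other peptidase genes, Ctsa, Tpp1 and Ctsf were named for their CPM, a scale that does not divide by length and gives no order of levels. Ctsa, the protective protein of lysosomal sialidase and galactosidase, ran from 4086 to 4425 counts over the 6 libraries, with a log2 fold change of 0.01 (adjusted p = 0.983). Ctsf, a cysteine cathepsin gene, ran from 2196 to 2789 counts, with −0.17 (adjusted p = 0.44). Tpp1, an aminopeptidase gene, was at 2228, 2336 and 2258 counts in Lgmn+/+-IR against 3098, 2822 and 3519 in Lgmn-/--IR, and Ctsk, whose product degrades collagen, had 278, 218 and 189 against 96, 134 and 140. Neither pair of genotypes overlapped, and with log2 fold changes of 0.43 and −0.94 they missed the threshold in edgeR's quasi-likelihood test (adjusted p = 0.117 and 0.0861). Ctsk was singled out after its values were seen. DESeq2 called both (adjusted p = 0.036 and 0.0098).

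Of 17 other cystatin genes only 3 were expressed enough to be tested, and 8 had no count in any library. Cstb, the gene of the cytosolic inhibitor cystatin B, had a log2 fold change of −0.07, Cst6, whose product cystatin E/M also inhibits legumain, had 0.10, and Cstl1 had 0.60 at 8 to 26 counts. None was called by edgeR's quasi-likelihood test, DESeq2 or limma-voom, and 0 had an unadjusted p under 0.05.

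Sorting receptors and transcription factors of the lysosome were likewise not called. Of 14 such genes 13 were tested, with a median log2 fold change of 0.00, and 0 were called by edgeR's quasi-likelihood test, DESeq2 or limma-voom. None had an unadjusted p under 0.05. Psap, the gene of the saposin precursor, had a log2 fold change of −0.01, Sort1, a sorting receptor, 0.08, and Scarb2, which carries glucocerebrosidase to lysosomes, −0.09. Of the factors that bind the letters shown above, Tfeb had a log2 fold change of −0.12 and Tfe3 of 0.00 (adjusted p = 0.666 and 0.992). Mitf, of the same family and named after its values were seen, was at 256, 263 and 185 counts in Lgmn+/+-IR against 393, 341 and 278 in Lgmn-/--IR. Its libraries did not overlap, and the log2 fold change of 0.48 (95% CI −0.02 to 0.97) had an adjusted p of 0.283 in edgeR's quasi-likelihood test.

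**Figure D3:**
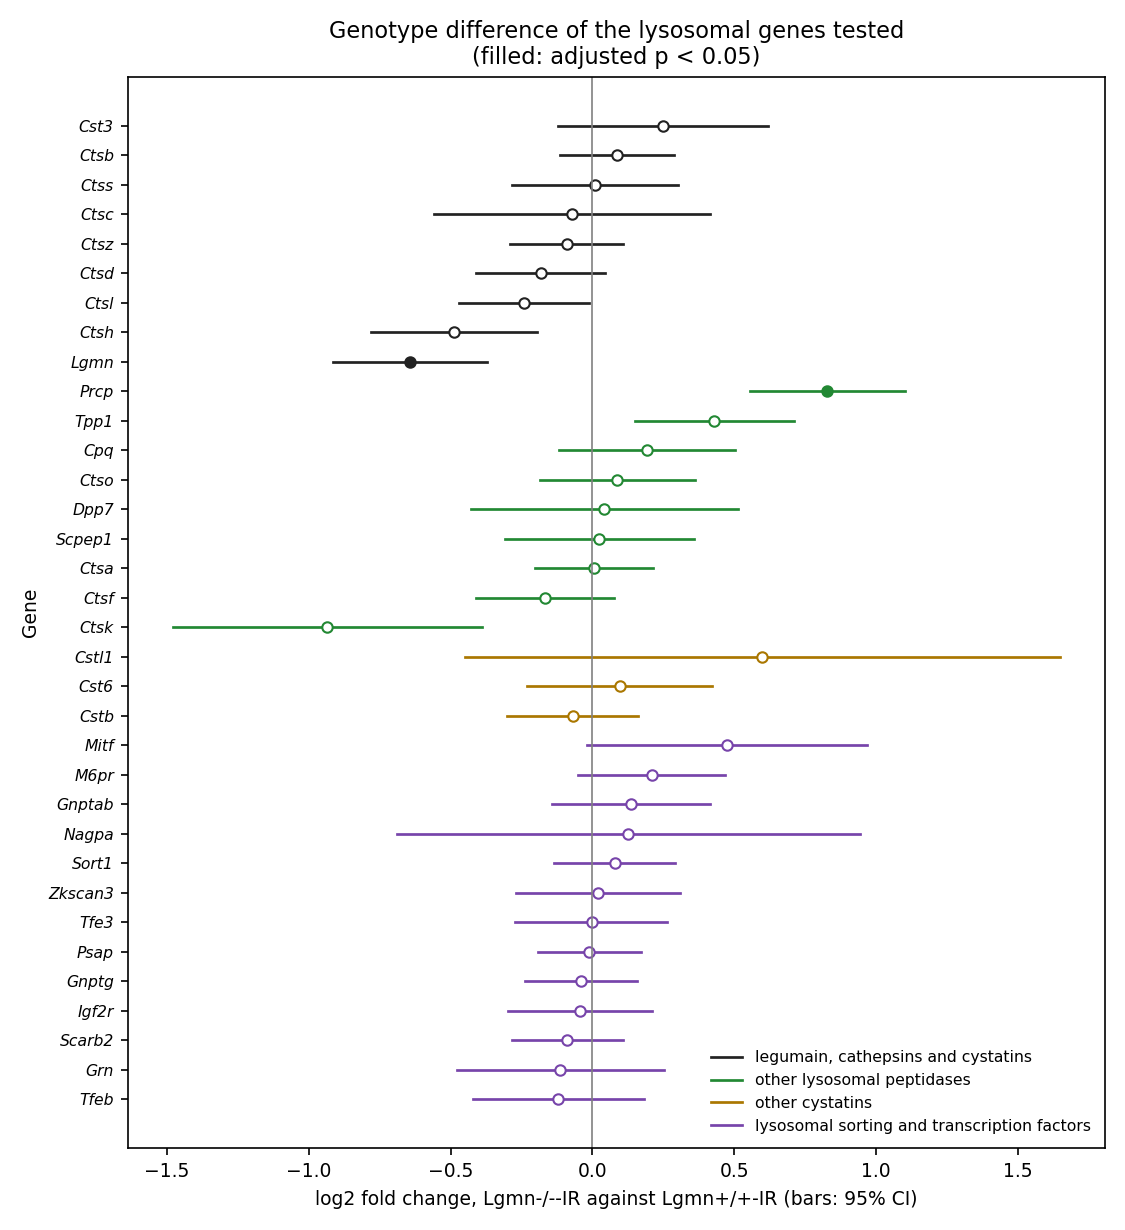
Log2 fold change with its 95% CI for each lysosomal gene tested, in 4 groups of genes, with filled points for an adjusted p under 0.05 in edgeR's quasi-likelihood test. Only Lgmn at −0.64 and Prcp at 0.83 are filled, and most other intervals span 0.

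Likeness to Lgmn was measured by Pearson's r of log2 CPM over the 6 libraries, as a description. Because 3 libraries of each genotype make up the points, r follows the difference between genotypes. Among the cathepsin and cystatin genes r was 0.93 for Ctsl, 0.91 for Ctsh, 0.52 for Ctsz, 0.48 for Ctsd, 0.18 for Ctsc, −0.06 for Ctss, −0.34 for Ctsb and −0.74 for Cst3. Of 10153 genes with a mean of at least 10 CPM, the 5 most alike were Apcdd1 (r = 0.9943), AK157302 (0.993), Armcx1 (0.9883), Apoa1bp (0.9852) and Smim10l1 (0.9851). Their log2 fold changes were −0.60, −1.06, −1.10, −0.18 and −0.59. Armcx1, AK157302 and Smim10l1 were called (adjusted p = 0.00619, 0.0118 and 0.0243 in edgeR's quasi-likelihood test), and Apcdd1 and Apoa1bp were not (adjusted p = 0.0664 and 0.313).

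The genes around Lgmn were examined because they share the targeted chromosome. Of 45 genes tested whose start lies within 2 Mb of the start of Lgmn, 2 were called (4.44%, beside 3.33% of all genes), both lower, and 30 had a log2 fold change under 0 (median −0.10). Within 10 Mb, 3 of 155 were called (1.94%, median −0.09). The nearest tested gene on one side was Golga5, 29.3 kb away, with a log2 fold change of 0.05 (adjusted p = 0.857). On the other side Rin3, 156.8 kb away, was at 150, 139 and 166 counts in Lgmn+/+-IR against 248, 221 and 247 in Lgmn-/--IR. These ranges did not overlap, and the log2 fold change of 0.62 had an adjusted p of 0.0782 in edgeR's quasi-likelihood test. DESeq2 called Rin3 and also Chga, 115.2 kb from Lgmn.

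Both called genes within 2 Mb belong to the Serpina3 cluster of serine protease inhibitor genes. Serpina3n, which reactive astrocytes are known to express, is 1966.9 kb from Lgmn and fell from 1191, 1222 and 1539 counts to 853, 628 and 790, a log2 fold change of −0.83 (adjusted p = 0.0373 in edgeR's quasi-likelihood test). Serpina3h, annotated as a pseudogene 1808.1 kb away, was at 27, 25 and 30 counts in Lgmn+/+-IR against 2, 2 and 0 in Lgmn-/--IR (adjusted p = 0.0122). Serpina3n lost its call when any of the 6 libraries was left out, and Serpina3h when Lgmn+/+-IR replicate 2 or 3 was. The cluster holds closely related copies, so the assignment of these reads is uncertain. The third called gene, Xrcc3, a gene of homologous recombination, is 9374.1 kb away, with a log2 fold change of −0.79 (adjusted p = 0.0449).

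**Figure D4:**
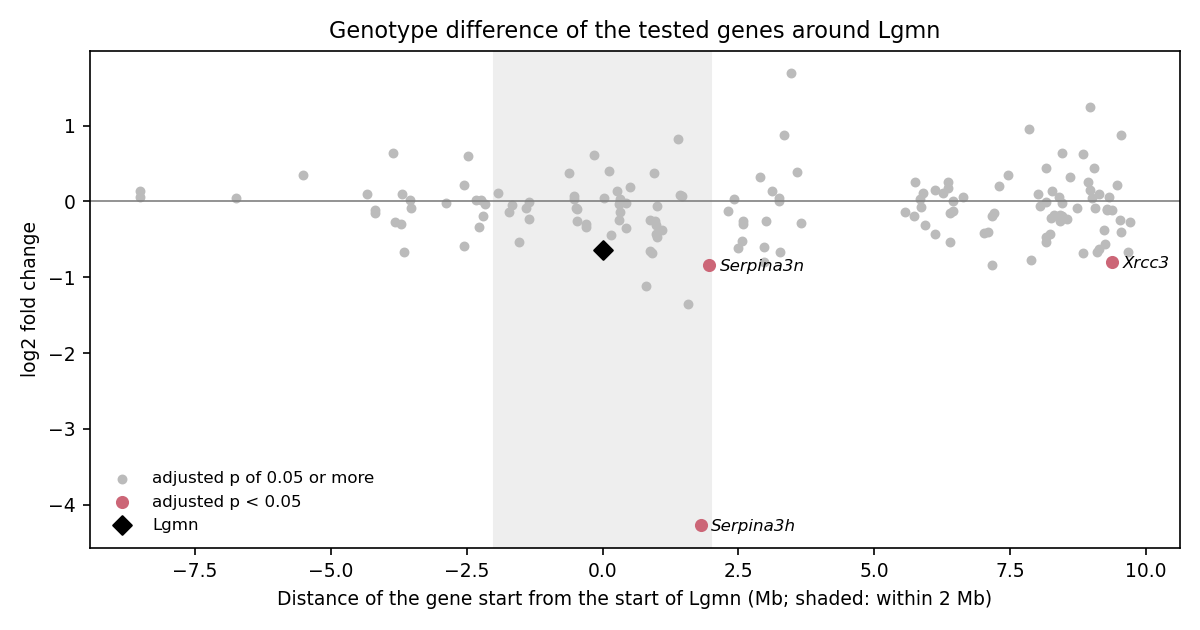
Log2 fold change of each tested gene against the distance of its start from the start of Lgmn (Mb), with Lgmn as a diamond and genes with an adjusted p under 0.05 in red. The 3 called genes, Serpina3h, Serpina3n and Xrcc3, are all below 0, and in edgeR's quasi-likelihood test no called gene lies nearer to Lgmn than 1808.1 kb.

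Markers of the cell types that express these peptidases were read beside them. Of 17 microglia markers 14 had a log2 fold change under 0 (median −0.11), and their summed level was 352.9 to 383.2 CPM in Lgmn+/+-IR and 304.1 to 349.6 CPM in Lgmn-/--IR. These sums did not overlap. None of the 17 was called by edgeR's quasi-likelihood test. An unadjusted p under 0.05 was found for 4 of the 17 and for 18.6% of all genes, and DESeq2 called 2 of them and 1423 of the 18345 genes. The 3 markers with a log2 fold change above 0 were Aif1 (0.46), Sall1 (0.35) and Ptprc (0.31). The part of microglial RNA in the lower values of Ctsh and Ctsl was not tested.

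Of 6 oligodendrocyte markers 4 were called (Mog, Mag, Mobp and Cldn11), all lower in Lgmn-/--IR (beside 1.68% of all genes). Mbp and Olig2 were not called, with log2 fold changes of −0.24 and 0.38 (adjusted p = 0.411 and 0.299 in edgeR's quasi-likelihood test). The summed level of the 6 was 1910 to 2337 CPM in Lgmn+/+-IR and 1310 to 1368 CPM in Lgmn-/--IR. Mobp, a myelin protein gene, fell by 1.12 on the log2 scale (adjusted p = 0.0033). Their part in the Lgmn, Ctsh and Ctsl values was not tested. Of 8 astrocyte markers 1 was called in edgeR's quasi-likelihood test, Aqp4, the water channel of astrocyte endfeet, which was higher (0.55, adjusted p = 0.0374). Log2 fold changes were above 0 for 7 of the 8 (median 0.23). An unadjusted p under 0.05 was found for 3 of the 8 and for 18.6% of all genes. DESeq2 called 2 of them and 1423 of the 18345 genes. The summed levels of 3280 to 3568 and 3241 to 3716 CPM overlapped. Slc1a2, the 1 marker under 0 (−0.06), had means of 2350 and 2260 CPM in these sums. Neuron markers overlapped as well, at 10140 to 11410 and 10960 to 13080 CPM.

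All 5 tested red blood cell markers were called higher in edgeR's quasi-likelihood test (beside 1.65% of all genes). DESeq2 called 5 and limma-voom 3. The list summed to 7.59 to 15.85 CPM in Lgmn+/+-IR and 233.6 to 2273 CPM in Lgmn-/--IR. Of 9 markers of infiltrating or border myeloid cells 5 were tested and Ly6c2, a monocyte surface protein gene, was called lower (−3.31), while 3 of the 5 had log2 fold changes above 0 and the median was 0.11. The list summed to 11.32 to 16.72 CPM in Lgmn+/+-IR against 4.459 to 9.252 in Lgmn-/--IR, and without Ly6c2 to 4.37 to 5.63 against 3.71 to 8.28 CPM, which overlap. Endothelial markers (148.4 to 206.9 and 149 to 245.1 CPM) and choroid plexus markers (29.71 to 51.61 and 29.35 to 45.35 CPM) overlapped. Log2 fold changes were above 0 for 6 of 7 endothelial markers (median 0.45) and for 3 of 6 choroid plexus markers (median −0.33). None was called in either list by edgeR's quasi-likelihood test, with 1 of each list at an unadjusted p under 0.05, and DESeq2 called 1 endothelial marker.

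Across 18 processing alternatives the log2 fold change of Lgmn lay between −0.74 and −0.54, that of Ctsl between −0.29 and −0.17, that of Ctsh between −0.55 and −0.43 and that of Cst3 between 0.12 and 0.41. Lgmn was called in 12 of the 18, Ctsh in 1 (DESeq2) and Ctsl and Cst3 in none, where their adjusted p ran from 0.128 to 0.431 and from 0.17 to 0.675.

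**Figure D5:**
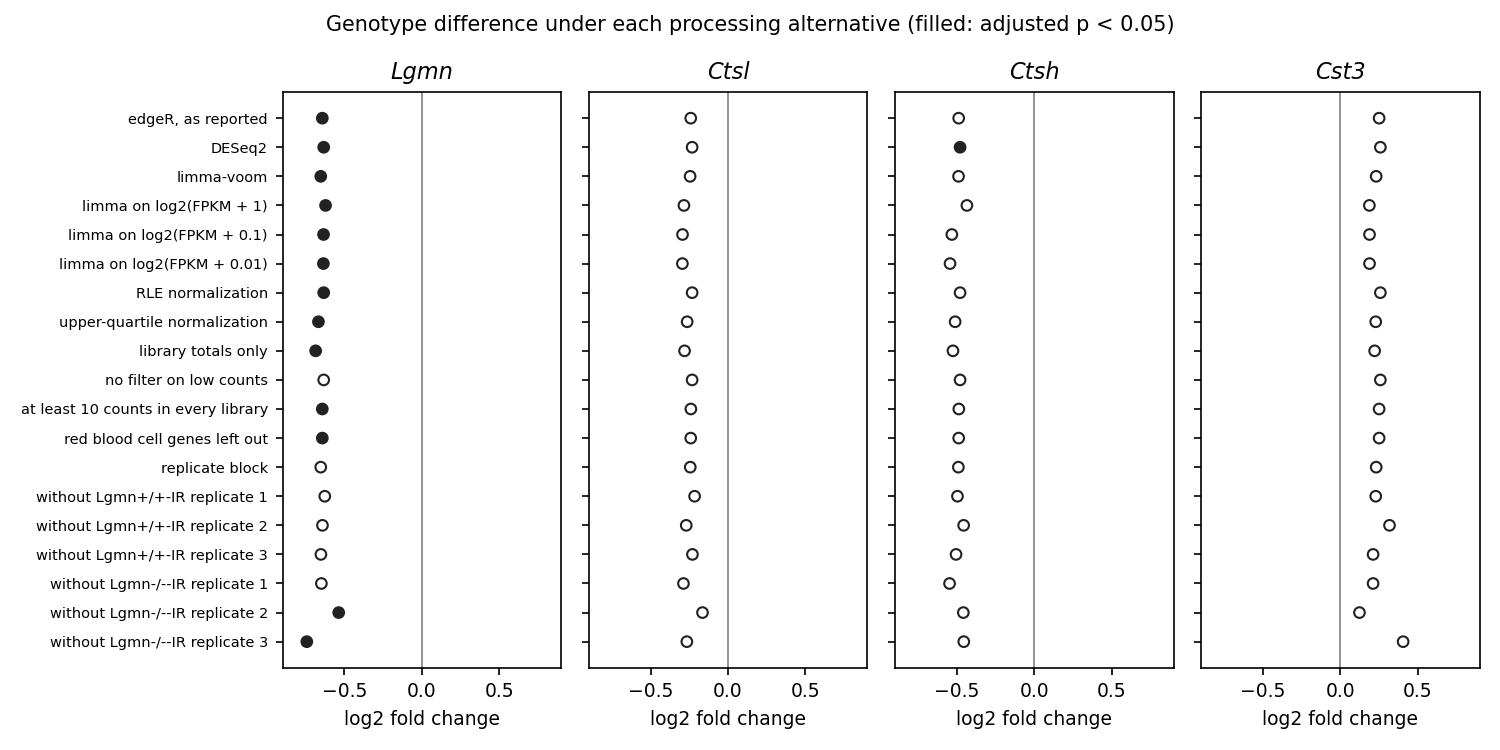
Log2 fold change of Lgmn, Ctsl, Ctsh and Cst3 as reported and under each of 18 alternatives, with filled points for an adjusted p under 0.05. Each gene keeps its sign throughout, and the filled points are those of Lgmn in 12 alternatives and of Ctsh with DESeq2.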

How the data were processed

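Cortical polyA RNA of 3 Lgmn+/+-IR and 3 Lgmn-/--IR mice was analysed, grouped by the sample labels. The authors filtered reads with Trimmomatic 0.36 before mapping with HISAT2, and the submitters' processing notes name GRCm38. Raw counts per gene were deposited without normalization, and the FPKM that the authors computed with StringTie was deposited for the same genes. The read counter and its strand setting were not given in the sources used here. Of 51826 gene IDs, 51633 were found in GENCODE M21, which gave positions.

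Counts were tested with edgeR 4.0.16 in R 4.3.3 (TMM scaling, filterByExpr, a quasi-likelihood F-test of genotype without covariates, and Benjamini-Hochberg adjustment over 18345 genes). The study named limma without its input values. Intervals come from the model's standard error. The scripts were tested on simulated data. DESeq2 1.42.0, limma 3.58.1 (voom, and log2(FPKM + pseudocount)), further scalings and filters, a block for the replicate number and leaving out single libraries were the alternatives. Between libraries of a genotype the chi-square averaged 26.7 to 94.9 per gene, beyond sampling noise, and each counted as 1 sample. Because reads carried no molecular identifiers, the limit of 3 counts that a count of 0 allows covers counting error only.

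The 10 genes, the gene lists and the tests were chosen with earlier results of these data known. Named are these genes, the called genes or those with the highest mean CPM of each list, the nearest and the called genes around Lgmn, and the 5 genes most like it. Of the marker lists, 1 gene is not reported here and was left out of its list's count and sum.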

Additional observations from a re-analysis of the deposited data

How the results depend on the processing

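Lgmn, Ctsb, Ctsl, Ctsd, Ctsz, Ctsh, Cst3, Prcp, Ctsk and Tpp1 kept their sign under all 18 alternatives. Of the 10 genes 1 was called. DESeq2 called 2 (Lgmn and Ctsh), no filter on low counts and the replicate block called 0, and leaving out each library gave 0 to 1. For Lgmn, no filter gave −0.63 (adjusted p = 0.0632) and leaving out each library −0.74 to −0.54. Of the other peptidases 1 was called. DESeq2 called 3 (Ctsk, Prcp and Tpp1), the replicate block 0, and leaving out each library gave 0 to 1. Of the genes within 2 Mb of Lgmn 2 were called. DESeq2 called 4 (adding Chga and Rin3), no filter 1, at least 10 counts in every library 1, the replicate block 0, and leaving out each library 0 to 1. Of all genes 611 were called. DESeq2 called 1423, no filter 404, at least 10 counts in every library 406, and leaving out each library 223 to 500. The cause of these changes was not tested.

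The log2 fold change of Ctss turned to −0.034 (log2(FPKM + 1)), −0.036 (pseudocounts 0.1 and 0.01), −0.014 (upper-quartile scaling) and −0.027 (library totals), and leaving out each library gave −0.089 to 0.093. That of Ctsc ran from −0.305 to 0.058 when each library was left out. Neither was called anywhere.

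Same-numbered mice differ in genotype, and the correlations of their deviations were −0.30, −0.05 and −0.05. For differently numbered mice they ran from −0.206 to 0.253. With 3 mice of a genotype centred on their mean, these values cannot decide whether the numbers pair mice. With the replicate block 150 genes were called, 149 of them among the 611, and the log2 fold changes were −0.65 for Lgmn (adjusted p = 0.113) and 0.83 for Prcp (adjusted p = 0.0956). The other cystatins and the sorting genes had no call under any alternative. No scaling moved the median of all genes by more than 0.1. Depth limited Cst7, which had at most 6 counts in a library.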
